A study of Mus musculus with 36 samples.

Results

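NF-kB is a family of transcription factors made as dimers of 5 subunits, and the transcripts of the 5 subunit genes, Nfkb1, Nfkb2, Rela, Relb and Rel, were followed here in mouse microglia and astrocytes stimulated with TNF. The genes were taken by symbol from the deposited annotation. All 5 were found in both tables, among 15385 genes in the microglial table and 14551 genes in the astrocyte table, and all 5 passed the filter on low values in each. In the astrocytes Rel passed through 6 libraries alone, those of T/S/Z and T/S/Z/N, so that it had to differ between treatments to be tested.

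Both cell types came from mixed glial cultures of pooled brains of C57BL/6 mice, 2 to 4 days old per the labels and 4 days per the study's methods, grown for 12 days, and were treated for 4 h. Microglia were selected with CD11b and received DMSO, Nec-1s, TNF with 5z-7 (T/5z), TNF with 5z-7 and Nec-1s (T/5z/N), TNF with Smac mimetic and zVAD (T/S/Z), the last also with Nec-1s added (T/S/Z/N), and each treatment had 4 libraries. Astrocytes, selected from what was left once the microglia had been removed, received T/S/Z, T/S/Z/N, Nec-1s alone or DMSO, in 3 libraries each. 5z-7 inhibits the kinase TAK1, zVAD inhibits caspases, a Smac mimetic depletes the ubiquitin ligases cIAP1 and cIAP2, and Nec-1s inhibits the kinase RIPK1. T/5z is used to induce apoptosis and T/S/Z necroptosis, and the comparisons with Nec-1s ask how much of each response needed RIPK1 kinase activity. The study reports that both stimuli killed microglia, which Nec-1s attenuated, but saw no RIPK1-kinase-dependent loss of viability in astrocytes. The part of dying cells in the microglial results was not tested. The stimulated groups contain TNF together with the inhibitors, and no group received TNF alone, so the part of each agent cannot be told apart.

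In resting cells, dimers of RELA with p50, the product of Nfkb1, are held in the cytoplasm by inhibitor proteins of the IkB family. TNF binding to its receptor leads through TAK1 to the IKK kinases, which mark IkB for destruction, and the freed dimers enter the nucleus (the canonical pathway). A slower, noncanonical branch through the kinase NIK turns the Nfkb2 product p100 into p52, which pairs with RELB, and c-Rel, the product of Rel, is best known from lymphoid and myeloid cells. RELA, RELB and c-Rel carry activation domains, whereas p50 and p52 do not. Several subunit and inhibitor genes are themselves targets of NF-kB.

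Levels are given as the deposited log2(FPKM + 1), where FPKM is fragments per kilobase of exon scaled for sequencing depth, and a difference is one between mean levels on that scale. A gene passed the test at an adjusted p under 0.05 and a fold above 1.5, by limma across all tested genes of a table with the replicate number as a block and Benjamini-Hochberg adjustment (2-sided). "Rose" and "fell" are kept for genes that passed. Values after ± are SD over the libraries of a treatment. In bulk samples such as these, fewer cells of a type and less RNA per cell cannot be told apart.

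The DNA next to the starts of 2 subunit genes that rose is given because it holds the letters of the site these dimers are known to bind. RefSeq windows of 300 bases (build GRCm38.p6, 250 before and 50 after each annotated start) were held for 3 of the 5 genes, Nfkb2 with 3 starts, Rela and Rel. They were searched on both strands for the NF-kB consensus, which was in 8.46% of 32851 such windows of all genes, and for a looser motif (GGG and CC with any 5 bases between), which overlaps the consensus and was in 50.8%. In each sequence the capitals mark the consensus match, and overlapping matches were joined.
Nfkb2, chr19:46304689-46304718, + strand: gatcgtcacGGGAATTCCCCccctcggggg
Nfkb2, chr19:46304716-46304745, + strand: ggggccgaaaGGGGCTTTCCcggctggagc
Nfkb2, chr19:46305449-46305478, + strand: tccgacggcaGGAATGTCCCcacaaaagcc
Nfkb2, chr19:46305695-46305724, + strand: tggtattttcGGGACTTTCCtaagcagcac
Rel, chr11:23770971-23771219, - strand: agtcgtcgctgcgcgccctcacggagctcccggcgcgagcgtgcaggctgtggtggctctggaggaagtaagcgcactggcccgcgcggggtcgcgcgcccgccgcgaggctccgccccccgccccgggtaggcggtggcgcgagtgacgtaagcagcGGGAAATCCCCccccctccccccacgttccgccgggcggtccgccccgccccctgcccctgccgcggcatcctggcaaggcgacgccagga

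The first Nfkb2 start had 2 sites, at -39 to -29 and -11 to -2 relative to the start. The fourth Nfkb2 sequence fell in the windows of both later starts. Rel had 1 site, at -92 to -82. The Rela window had 0 matches to the consensus and 4 to the looser motif, in 2 sites. A match is a run of letters and not a measured binding site.

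Nfkb1 (ENSMUSG00000028163) lies on the minus strand of chromosome 3 at 135584655 to 135691546 in the microglial annotation. Nfkb2 (ENSMUSG00000025225) lies on the plus strand of chromosome 19 at 46304737 to 46312090. Rela (ENSMUSG00000024927) is on the plus strand of chromosome 19 at 5637483 to 5648130, Relb (ENSMUSG00000002983) on the minus strand of chromosome 7 at 19606217 to 19629438, and Rel (ENSMUSG00000020275) on the minus strand of chromosome 11 at 23736847 to 23770970. The deposited annotation matches build GRCm38 and marks Nfkb1 and Nfkb2 as confounded, a mark it does not define. The mark is on 7834 of the 15385 microglial and 8207 of the 14551 astrocyte genes, among them pathway genes named below such as Nfkbib and Map3k14. In GENCODE M21, exons of Nfkb2 overlap exons of Psd and of the noncoding AC114539.1 on the other strand, and reads there could not be separated in the microglial libraries, whose preparation is not described as strand-specific.

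In microglia a gene's 6 treatments averaged to the same value in each of the 4 replicates (largest difference 8.33e-05), through an adjustment that the study's methods do not describe. The SD over microglial replicates therefore leaves out shifts between whole replicates, and the blocked differences do not depend on them. Summed over the 10 markers of each cell type, all listed in both tables, microglial markers reached 8034 to 9715 FPKM in microglial libraries and astrocyte markers 3069 to 3577 FPKM in astrocyte libraries. P2ry12, a homeostatic microglial receptor, was low in the microglia, at 1.85 to 5.29 FPKM. Astrocyte markers in microglial libraries summed to 175 to 235 FPKM with DMSO, 81.2 to 107 with T/5z, 121 to 130 with T/5z/N, 112 to 132 with T/S/Z and 135 to 152 with T/S/Z/N. Nearly all of that sum was Glul, which encodes glutamine synthetase, at 69.0 to 226 FPKM, while none of the other 9 exceeded 7.42 FPKM in any microglial library. Microglial markers in astrocyte libraries summed to 94.9 to 98.7 FPKM with DMSO, 58.3 to 60.4 with T/S/Z and 82.4 to 89.7 with T/S/Z/N. The 4 fibroblast markers in astrocyte libraries summed to 370 to 410 FPKM with DMSO, 82.5 to 92.3 with T/S/Z and 321 to 332 with T/S/Z/N. The 7 oligodendrocyte-lineage markers there summed to 100 to 117 FPKM with DMSO, 60.3 to 86.9 with T/S/Z and 67.9 to 71.9 with T/S/Z/N. The part of these shifts in the results was not tested.

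In unstimulated microglia Rela was the most abundant subunit transcript and Rel the least. With DMSO, Rela reached 62.3 ± 2.6 FPKM (n = 4), Nfkb2 55.4 ± 1.9, Nfkb1 41.8 ± 2.1, Relb 30.0 ± 2.0 and Rel 7.91 ± 0.94. In this order each gene was above the next in 4 of 4 libraries and no neighbouring ranges overlapped. In astrocytes with DMSO the order was Rela at 24.5 ± 3.2 FPKM (n = 3), Nfkb1 14.9 ± 0.9, Nfkb2 8.93 ± 0.44, Relb 6.21 ± 0.71 and Rel 0.862 ± 0.049, again with no overlap between neighbours. Levels of the cell types come from tables normalized apart and on different gene models. The summed exon length used for Nfkb1 was 4124 bases in microglia and 12061 in astrocytes, for Nfkb2 3289 and 4584, for Relb 2211 and 3885 and for Rela 2716 and 3072, while that of Rel was 7466 bases in both. A longer model lowers FPKM at the same fragment count, so the levels of Nfkb1, Nfkb2, Rela and Relb and the order cannot be compared between the cell types. The order and the shares of the sum within a cell type rest on these lengths too. In astrocytes the length was 12061 bases for Nfkb1 and 3072 for Rela, so their order there could change with another gene model. The labels name different sequencing providers for them, whereas the study's methods describe 1 platform. If the labels are right, cell type and provider cannot be told apart, and no test was made between them.

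Nec-1s alone moved no subunit gene past the test. In microglia 0 of 5 genes passed with Nec-1s against DMSO (0% of all genes, with 892 at an unadjusted p under 0.05), and 0 of 5 had an unadjusted p under 0.05 in limma. The difference furthest from 0 was that of Relb, 0.11 (95% interval -0.03 to 0.26). In astrocytes 0 of 5 passed (0.0144% of all genes), and 0 of 5 had an unadjusted p under 0.05 (790 of all 13842 genes). The differences there ran from -0.03 for Nfkb1 (-0.23 to 0.16) to 0.10 for Rela (-0.12 to 0.31). The intervals of the differences do not reach the fold of 1.5 in either cell type.

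T/5z raised 4 of the 5 subunit transcripts in microglia, and Rel stayed inside its DMSO range. Among all 10524 genes tested, 24.4% passed in either direction and 11.1% were higher. The median difference of the 5 genes was 1.84 and that of all genes -0.06. T/S/Z raised all 5, against 29.6% of all genes in either direction and 12.2% higher, with a median difference of 1.64 for the 5 genes and -0.08 for all genes. Of the genes that passed with T/S/Z, 41.1% were higher, and 52.7% under median centring. Both comparisons use the same 4 DMSO libraries.

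**Figure D1:**
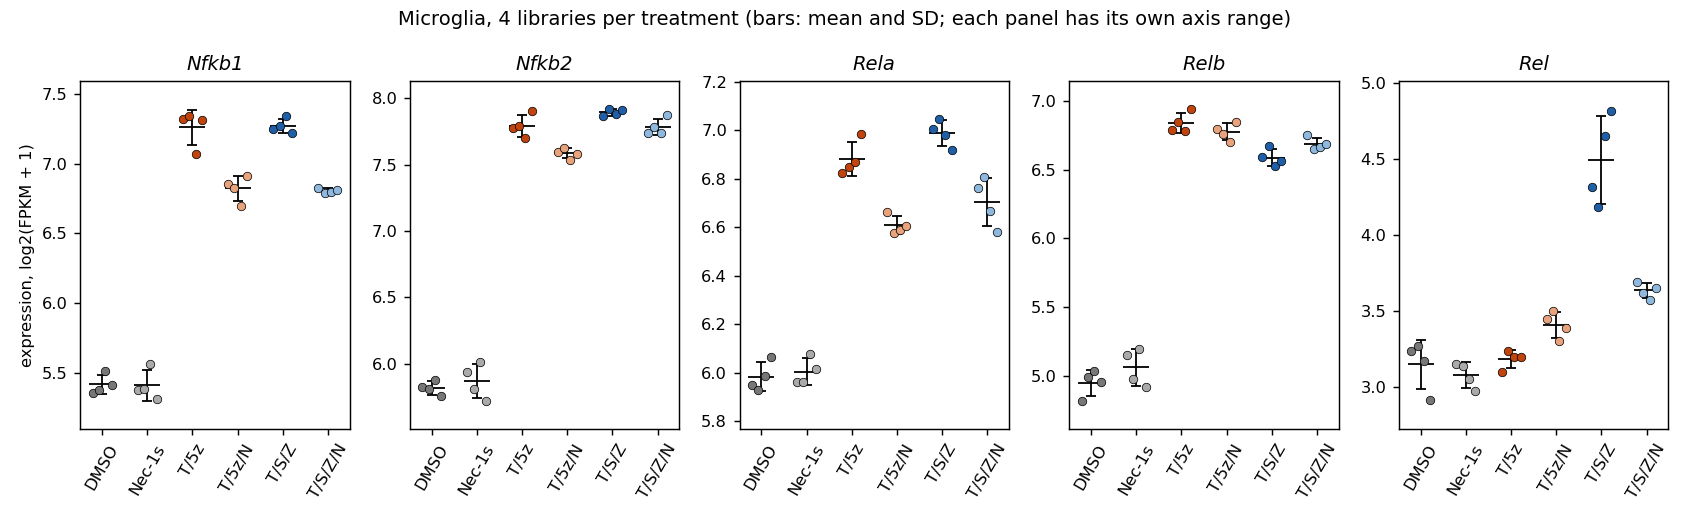
Level of each subunit gene in the 24 microglial libraries, in log2(FPKM + 1), by treatment; points are libraries, horizontal bars the mean and vertical bars the SD (n = 4), and each panel has its own axis range. Nfkb1, Nfkb2, Rela and Relb sit higher in every stimulated library than in any DMSO library, whereas Rel lies between 3.10 and 3.24 with T/5z and between 4.19 and 4.82 with T/S/Z.

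Nfkb1, which encodes p105 and the p50 made from it, stood at 5.36, 5.38, 5.52 and 5.42 in replicates 1 to 4 with DMSO. It stood at 7.32, 7.34, 7.07 and 7.31 with T/5z and at 7.25, 7.27, 7.34 and 7.22 with T/S/Z. Both stimulated groups lay wholly above DMSO and overlapped each other. Nfkb1 rose by 1.84 with T/5z (SE 0.08, 3.58-fold, adjusted p = 2.57e-06) and by 1.85 with T/S/Z (SE 0.05, 3.61-fold, adjusted p = 1.13e-07). The direct difference of T/S/Z from T/5z was 0.01 (95% interval -0.16 to 0.18).

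Nfkb2, which encodes p100 and p52, stood at 5.82, 5.81, 5.88 and 5.75 with DMSO. It reached 7.77, 7.79, 7.70 and 7.90 with T/5z and 7.87, 7.92, 7.88 and 7.91 with T/S/Z, again wholly above DMSO. Nfkb2 rose by 1.98 with T/5z (SE 0.06, 3.94-fold, adjusted p = 7.58e-07) and by 2.08 with T/S/Z (SE 0.05, 4.22-fold, adjusted p = 8.64e-08). It was the most abundant subunit transcript after either stimulus, at 221 ± 13 FPKM with T/5z and 237 ± 4 FPKM with T/S/Z.

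Rela, which encodes the main activating subunit p65, stood at 5.95, 5.93, 5.99 and 6.06 with DMSO. It reached 6.83, 6.85, 6.87 and 6.99 with T/5z and 7.01, 7.05, 6.98 and 6.92 with T/S/Z. No stimulated library overlapped DMSO, though the shift was smaller than for Nfkb1 and Nfkb2. Rela rose by 0.90 with T/5z (SE 0.04, 1.87-fold, adjusted p = 3.83e-06) and by 1.01 with T/S/Z (SE 0.06, 2.01-fold, adjusted p = 3.48e-06).

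Relb, the partner of p52 in the noncanonical branch, stood at 4.82, 4.99, 5.03 and 4.95 with DMSO. It reached 6.79, 6.84, 6.78 and 6.94 with T/5z and 6.59, 6.67, 6.52 and 6.56 with T/S/Z. Relb rose by 1.89 with T/5z (SE 0.06, 3.70-fold, adjusted p = 7.12e-07) and by 1.64 with T/S/Z (SE 0.06, 3.11-fold, adjusted p = 4.83e-07). The T/5z libraries all lay above the T/S/Z libraries, by 0.25 on average (95% interval of T/S/Z minus T/5z -0.37 to -0.13, adjusted p = 0.0076), a difference short of the fold of 1.5.

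Rel, which encodes c-Rel, had the largest difference between the stimuli among the 5 genes. It stood at 3.24, 3.27, 3.17 and 2.92 with DMSO and at 3.10, 3.24, 3.20 and 3.19 with T/5z. It reached 4.32, 4.19, 4.65 and 4.82 with T/S/Z. The T/5z libraries fell inside the DMSO range and every T/S/Z library was above both groups. With T/5z the difference from DMSO was 0.03 (95% interval -0.15 to 0.22, adjusted p = 0.736), and with T/S/Z Rel rose by 1.35 (SE 0.15, 2.54-fold, adjusted p = 0.000109). In the direct comparison of T/S/Z with T/5z, Rel was the 1 gene of 5 that passed (9.83% of all genes, 5.42% higher), higher by 1.31 with T/S/Z (SE 0.11, 2.49-fold, adjusted p = 0.00013, 4 of 4 replicates).

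In astrocytes, which received T/S/Z but not T/5z, Nfkb1, Nfkb2, Rela and Relb rose as well, 4 of the 4 genes that were tested irrespective of the stimulated libraries. Rel, which passed the filter through those libraries, is given as a description. Of 13842 genes tested, 15.4% passed in either direction and 6.39% were higher (41.5% of those that passed, and 52.1% under quantile normalization). The median difference over all genes was -0.11. In each of the 5 genes every T/S/Z library lay above every DMSO library.

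**Figure D2:**
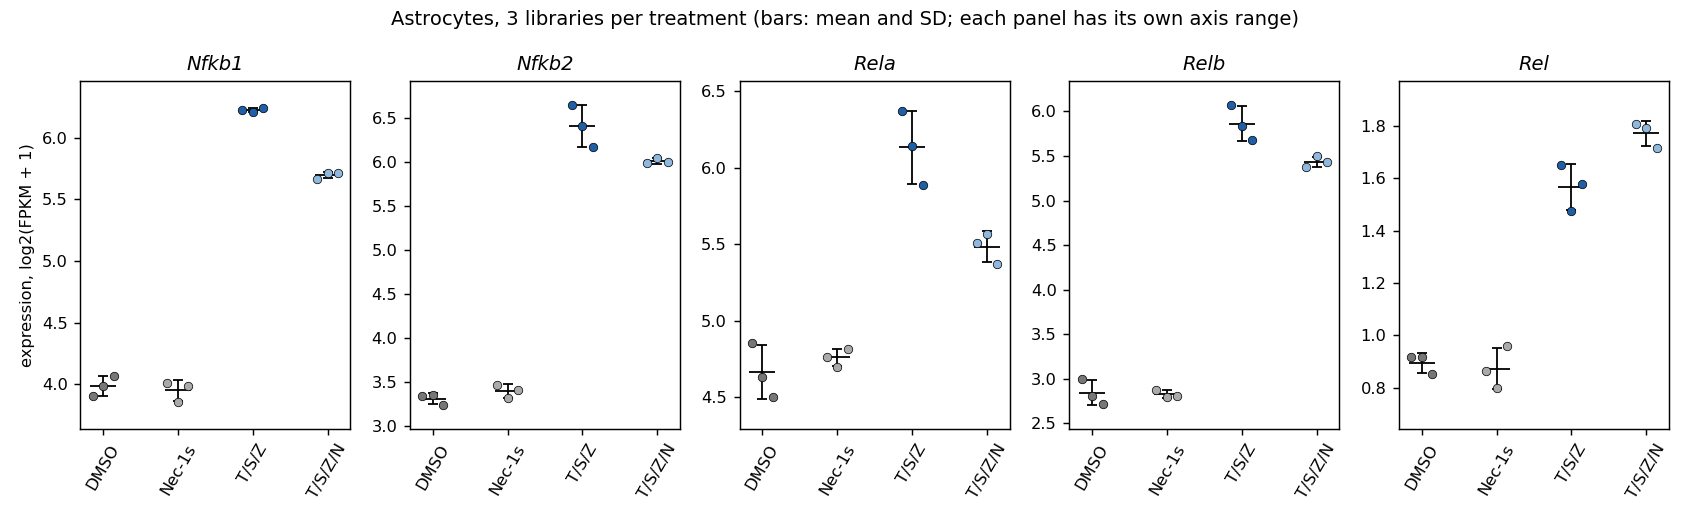
Level of each subunit gene in the 12 astrocyte libraries, in log2(FPKM + 1), by treatment; points are libraries, horizontal bars the mean and vertical bars the SD (n = 3), and each panel has its own axis range. The T/S/Z and T/S/Z/N libraries lie above DMSO in all 5 panels, and Rel spans only 0.80 to 1.81.

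Nfkb2 stood at 3.34, 3.35 and 3.24 with DMSO and at 6.65, 6.41 and 6.17 with T/S/Z in replicates 1 to 3. It rose by 3.10 (SE 0.09, 8.57-fold, adjusted p = 1.11e-06). Relb stood at 3.00, 2.81 and 2.72 with DMSO and at 6.07, 5.83 and 5.68 with T/S/Z. It rose by 3.02 (SE 0.08, 8.09-fold, adjusted p = 4.95e-07). The genes of the noncanonical pair had the largest differences of the 5 subunit genes in astrocytes.

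Nfkb1 stood at 3.91, 3.99 and 4.07 with DMSO and at 6.22, 6.21 and 6.24 with T/S/Z, a rise of 2.24 (SE 0.07, 4.72-fold, adjusted p = 1.77e-06). Rela stood at 4.85, 4.63 and 4.50 with DMSO and at 6.37, 6.14 and 5.89 with T/S/Z, a rise of 1.47 (SE 0.07, 2.77-fold, adjusted p = 1.24e-05).

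Rel was near the floor of the astrocyte table, at 0.92, 0.92 and 0.85 with DMSO and 1.65, 1.47 and 1.58 with T/S/Z. The T/S/Z libraries lay above those of DMSO, by 0.67 on average. In FPKM, Rel went from 0.862 ± 0.049 to 1.97 ± 0.18. The part of remaining microglia in the Rel signal was not tested.

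The make-up of the summed subunit transcripts shifted with stimulation, since the genes rose by unequal amounts. In microglia the sum over the 5 genes went from 197 ± 5 FPKM with DMSO to 612 ± 32 after T/5z. It reached 633 ± 8 FPKM after T/S/Z. Rela made up 31.6% ± 1.3 of the sum with DMSO, 19.1% ± 0.8 after T/5z, and T/S/Z gave 19.9% ± 0.6. Nfkb2 went from 28.1% ± 0.9 to 36.1% ± 0.4 and 37.4% ± 0.5. The ranges of these shares with DMSO and after either stimulus did not overlap.

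In astrocytes the sum went from 55.3 ± 3.4 FPKM with DMSO to 288 ± 34 with T/S/Z. Rela went from 44.1% ± 3.0 of the sum to 24.1% ± 1.3, Nfkb2 from 16.2% ± 0.7 to 29.4% ± 1.5 and Relb from 11.2% ± 0.6 to 19.9% ± 0.5. Nfkb1 kept overlapping shares, 23.7% to 30.1% with DMSO and 22.8% to 29.1% with T/S/Z. After T/S/Z the order in astrocytes, on the gene models used, was Nfkb2, Nfkb1, Rela and Relb, and neighbours in this order overlapped in range. Rel was the least abundant in every treatment of both cell types.

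**Figure D3:**
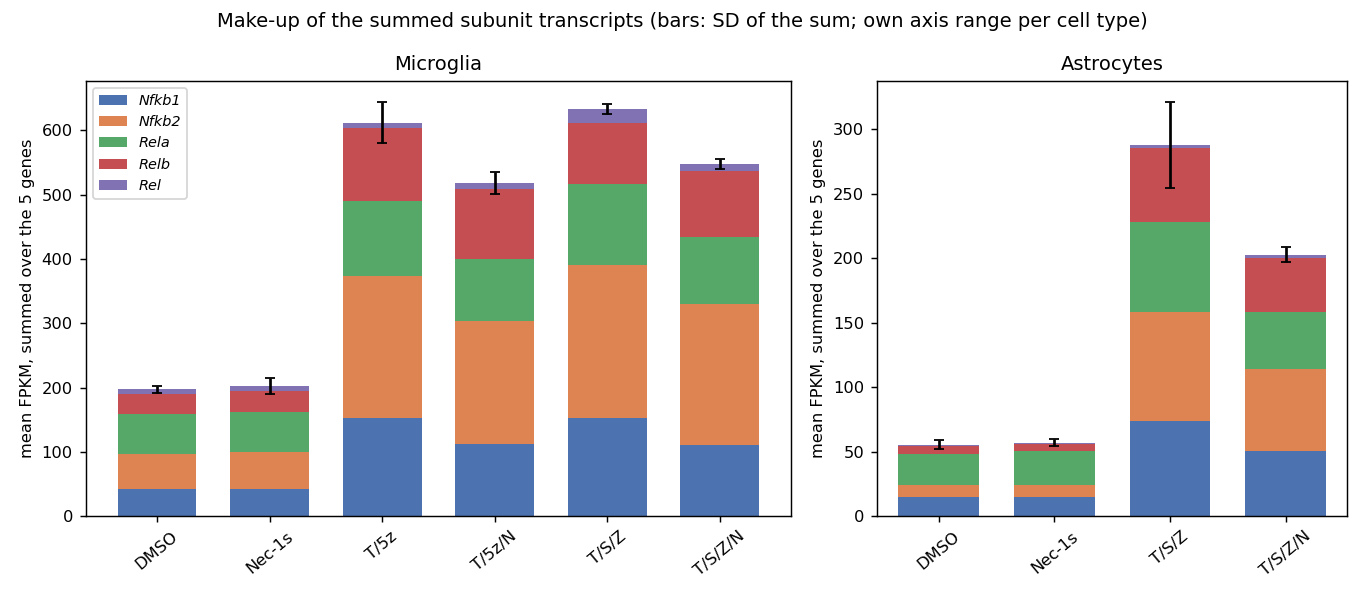
Mean FPKM of the 5 subunit genes stacked by treatment in microglia (left, n = 4 libraries per treatment) and astrocytes (right, n = 3), with error bars for the SD of the sum and an axis range for each cell type. The microglial sum goes from 197 FPKM with DMSO to 633 with T/S/Z and 548 with T/S/Z/N, and the astrocyte sum from 55.3 to 288 and 203.

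The subunit genes were next compared between each stimulus with Nec-1s and the same stimulus without it. In microglia, with T/5z/N against T/5z, 0 of 5 genes passed (7.16% of all genes). Of the 5, 4 had an adjusted p under 0.05 (48.3% of all genes) with folds short of 1.5, and 4 had an unadjusted p under 0.05 in limma (5824 of all 10524 genes). With T/S/Z/N against T/S/Z, 1 of 5 passed, Rel, which fell (12.1% of all genes passed and 6.72% were lower, with 44.3% of the calls higher, or 28.9% under median centring), and 3 of 5 had an adjusted p under 0.05 (57.8% of all genes). In astrocytes 1 of 5 passed, Rela, which fell (3.1% of all genes passed and 1.59% were lower), and 2 of 5 had an adjusted p under 0.05 (7.82% of all genes).

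**Figure D4:**
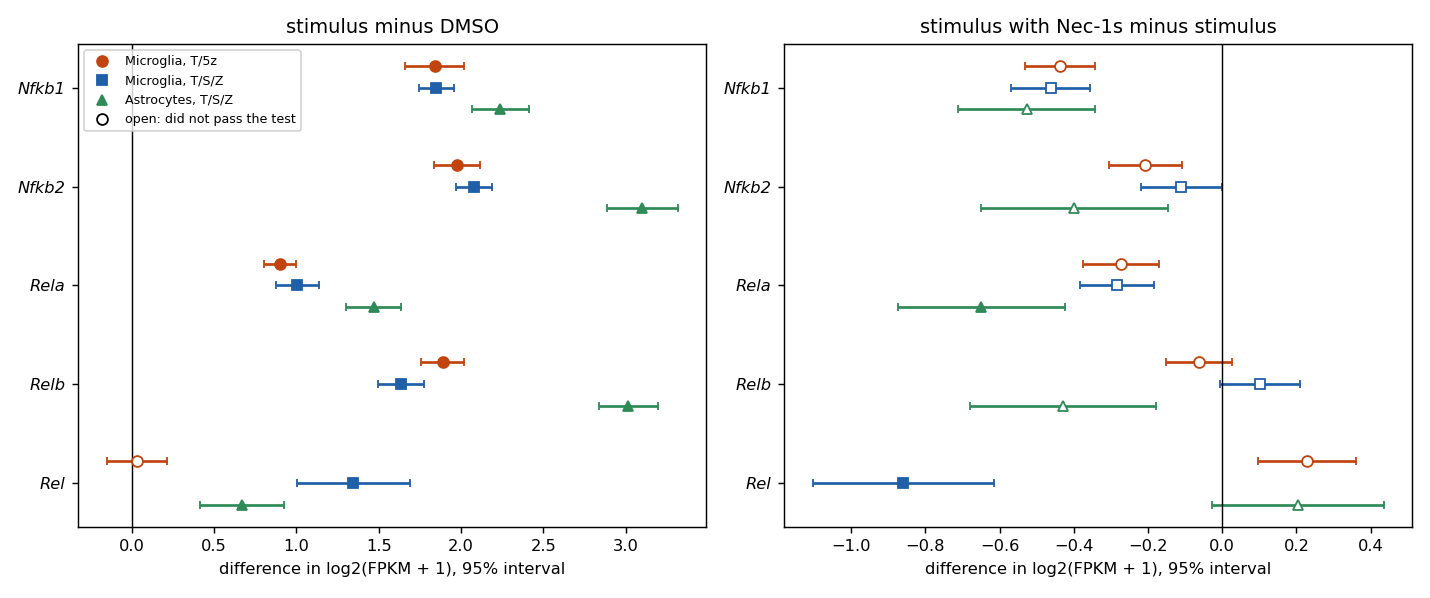
Differences in log2(FPKM + 1) of the subunit genes with 95% intervals, for stimulus minus DMSO (left) and stimulus with Nec-1s minus stimulus (right), in microglia after T/5z (circles) and T/S/Z (squares) and in astrocytes after T/S/Z (triangles); open symbols did not pass the test, and Rel in astrocytes entered it through stimulated libraries. On the right, Rel after T/S/Z in microglia sits at -0.86 and Rela in astrocytes at -0.65, and the other differences lie between -0.53 and 0.23.

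Nfkb1 was lower with Nec-1s in every replicate of the 3 comparisons. In microglia it stood at 6.86, 6.82, 6.70 and 6.91 with T/5z/N and at 6.83, 6.79, 6.80 and 6.81 with T/S/Z/N. These libraries lay wholly below those of the stimulus alone and wholly above DMSO. The difference was -0.44 after T/5z (95% interval -0.53 to -0.34, adjusted p = 8.92e-05) and -0.46 after T/S/Z (-0.57 to -0.36, adjusted p = 0.000131). As a share of the stimulus-induced difference, computed within replicates, this was 23.7% ± 2.2 (T/5z) and 25.0% ± 3.6 (T/S/Z) of the rise. In astrocytes Nfkb1 stood at 5.67, 5.71 and 5.71 with T/S/Z/N, lower by 0.53 than with T/S/Z (95% interval of the difference -0.71 to -0.34, adjusted p = 0.0117), which was 23.6% ± 1.1 of the response. These differences fell short of the fold of 1.5.

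Rela stood at 6.66, 6.58, 6.59 and 6.61 with T/5z/N and at 6.76, 6.81, 6.67 and 6.58 with T/S/Z/N in microglia. Both groups were wholly below their stimulus. The differences were -0.27 (95% interval -0.38 to -0.17, adjusted p = 0.00156) and -0.28 (-0.38 to -0.18, adjusted p = 0.00097), or 30.2% ± 9.3 and 28.9% ± 8.2 of the response, short of the fold of 1.5. In astrocytes Rela stood at 5.51, 5.57 and 5.37 with T/S/Z/N and fell by 0.65 (SE 0.10, adjusted p = 0.0114), or 44.0% ± 11.0 of the response. The call did not hold without replicate 1, where the difference was -0.54 (adjusted p = 0.0385), without replicate 2 (adjusted p = 0.0633) or with ordinary per-gene variance (adjusted p = 0.265).

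Nfkb2 and Relb, the genes of the noncanonical pair, differed little with Nec-1s in microglia. Nfkb2 stood at 7.60, 7.63, 7.53 and 7.58 with T/5z/N and at 7.74, 7.78, 7.74 and 7.87 with T/S/Z/N. Its difference from the stimulus alone was -0.21 after T/5z (95% interval -0.31 to -0.11, adjusted p = 0.00502) and -0.11 after T/S/Z (-0.22 to 0.00, adjusted p = 0.0757). The sign of the latter turned under quantile normalization (0.17, adjusted p = 0.0426). Relb stood at 6.80, 6.76, 6.70 and 6.84 with T/5z/N and at 6.75, 6.65, 6.67 and 6.68 with T/S/Z/N, overlapping the stimulus alone in both. Its differences were -0.06 (95% interval -0.15 to 0.03) and 0.10 (-0.01 to 0.21), and that after T/5z also changed sign under quantile normalization (0.03).

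In astrocytes Nfkb2 stood at 5.99, 6.05 and 6.00 and Relb at 5.37, 5.49 and 5.43 with T/S/Z/N, below every T/S/Z library. The differences from T/S/Z were -0.40 for Nfkb2 (95% interval -0.65 to -0.15, adjusted p = 0.065) and -0.43 for Relb (-0.68 to -0.18, adjusted p = 0.0547). Neither passed.

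Rel in T/S/Z-treated microglia gave the largest Nec-1s difference of the 5 genes. With T/S/Z/N in microglia it stood at 3.69, 3.62, 3.57 and 3.65, below every T/S/Z library and above every DMSO library. It fell by 0.86 from T/S/Z (SE 0.10, adjusted p = 0.000358, lower in 4 of 4 replicates), or 63.4% ± 6.5 of the response. After T/5z, which had not raised it, Rel stood at 3.45, 3.50, 3.30 and 3.39 with T/5z/N, higher by 0.23 than with T/5z (95% interval 0.10 to 0.36, adjusted p = 0.0116), short of the fold of 1.5.

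The interaction of Nec-1s with the stimulus, tested over the 16 libraries of the 4 stimulated microglial groups, was passed by 1 of the 5 genes, Rel (6.47% of all genes, 3.77% higher). The Nec-1s difference of Rel was higher after T/5z than after T/S/Z by 1.09 (SE 0.15, adjusted p = 0.000114, 4 of 4 replicates). For the other 4 the interaction was 0.03 for Nfkb1 (95% interval -0.14 to 0.20), -0.10 for Nfkb2 (-0.21 to 0.02), 0.01 for Rela (-0.15 to 0.17) and -0.16 for Relb (-0.29 to -0.03, adjusted p = 0.0605). In astrocytes Rel stood at 1.81, 1.79 and 1.71 with T/S/Z/N, above every T/S/Z library, with a difference of 0.20 (95% interval -0.03 to 0.44, adjusted p = 0.214). The opposite signs in microglia and astrocytes were not tested against each other, since the tables were normalized apart.

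With Nec-1s present, Nfkb1, Nfkb2, Rela and Relb were still above DMSO. T/5z/N against DMSO gave 4 of 5 genes higher (12.8% of all genes passed and 6.16% were higher), with differences of 1.40 for Nfkb1, 1.77 for Nfkb2, 0.63 for Rela and 1.82 for Relb. Rela fell short of the fold of 1.5 there under quantile normalization (0.57). T/S/Z/N against DMSO gave 4 of 5 in microglia (14.1% and 6.2%), with 1.39, 1.97, 0.72 and 1.74 in the same order. Rel did not pass in either, with 0.26 (95% interval 0.10 to 0.43, adjusted p = 0.0205) and 0.49 (0.30 to 0.67, adjusted p = 0.00172), short of the fold of 1.5. In astrocytes T/S/Z/N against DMSO gave 4 of the same 4 genes (9.08% and 4.36%, with 48.1% of the calls higher, or 59.1% under quantile normalization), with 1.71 for Nfkb1, 2.70 for Nfkb2, 0.82 for Rela and 2.59 for Relb. With ordinary per-gene variance 1 of these 4 passed, Nfkb2 (adjusted p = 0.0499). Rel was higher by 0.87, given as a description. With T/S/Z/N against T/5z/N in microglia, 0 of 5 passed (3.38% of all genes) and 3 had an unadjusted p under 0.05 in limma (4042 of all 10524 genes).

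The rest of the pathway was followed through 37 genes in 4 role groups, all tested in both tables. Of the 11 genes in the group of inhibitors and nuclear IkB proteins, 6 rose in microglia after T/5z, 9 rose after T/S/Z and 0 fell. In astrocytes Nfkbid passed the filter through stimulated libraries alone, like Rel, and is left out of the counts there, where 7 of the other 10 rose with T/S/Z and 0 fell. Among all genes the shares that were higher were 11.1%, 12.2% and 6.39%. The median differences in microglia were 2.05 and 2.30, beside -0.06 and -0.08 over all genes.

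Tnfaip3, which encodes the ubiquitin-editing enzyme A20, rose in microglia by 3.41 (T/5z, SE 0.11) and by 4.55 (T/S/Z, SE 0.06). Nfkbia, which encodes IkBalpha, rose by 3.71 with T/S/Z in microglia (SE 0.08) and by 4.55 in astrocytes (SE 0.11). Nfkbie, which encodes IkBepsilon, rose by 3.44 with T/5z in microglia (SE 0.10) and by 4.25 in astrocytes (SE 0.08). The adjusted p of these was 9.44e-07 or lower. Differences nearest 0 in the group were those of Nfkbid with T/5z (0.16, adjusted p = 0.27) and of Cyld with T/S/Z, with 0.06 in microglia and -0.11 in astrocytes.

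**Figure D5:**
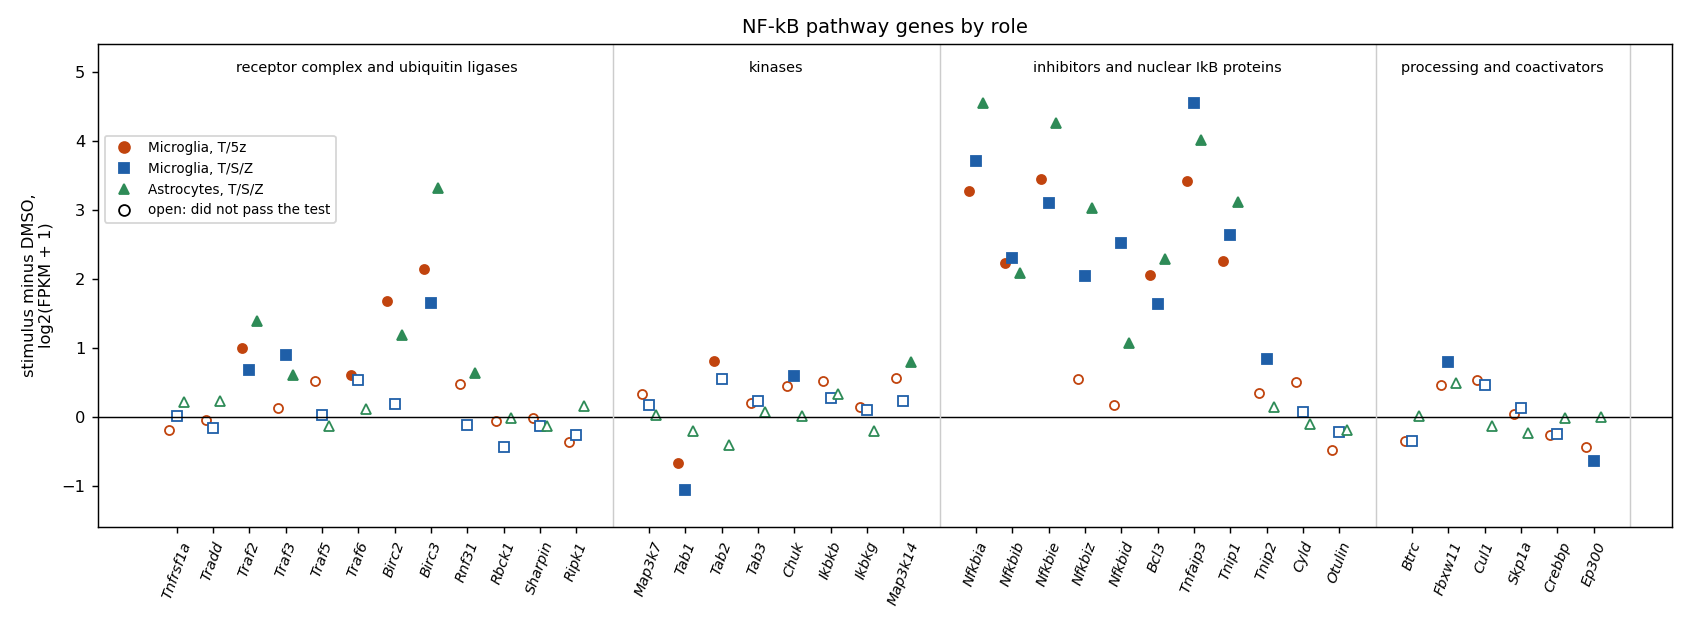
Stimulus minus DMSO in log2(FPKM + 1) for the 37 pathway genes, grouped by role, in microglia after T/5z (circles) and T/S/Z (squares) and astrocytes after T/S/Z (triangles); open symbols did not pass the test, and Nfkbid in astrocytes entered it through stimulated libraries. The differences reach 4.55 in the inhibitor group and 3.31 (Birc3 in astrocytes) in the receptor group, while processing and coactivator genes stay between -0.64 and 0.78.

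Among the 12 genes of the receptor complex and its ubiquitin ligases, 4 rose with T/5z, 3 with T/S/Z in microglia and 5 in astrocytes, and 0 fell (11.1%, 12.2% and 6.39% of all genes were higher). Birc3, which encodes cIAP2, rose by 2.14 (SE 0.08), 1.64 (SE 0.05) and 3.31 (SE 0.10). Birc2, which encodes cIAP1, rose by 1.68 with T/5z (SE 0.10, adjusted p = 1.09e-05), was lower with T/S/Z than with T/5z (fold 0.355, adjusted p = 4e-05) and did not pass for T/S/Z against DMSO (0.18, adjusted p = 0.0598). Sharpin, a part of the linear ubiquitin ligase, was at -0.02 with T/5z, and Tnfrsf1a, the TNF receptor, at 0.01 with T/S/Z in microglia.

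Of the 8 kinase genes, 1 rose and 1 fell with each stimulus in microglia, a share near that of all genes that passed (24.4% for T/5z, 29.6% for T/S/Z). In astrocytes 1 of the 8 rose (6.39% of all genes). Tab1, which encodes a binding partner of TAK1, fell by 0.68 with T/5z (SE 0.07, adjusted p = 0.00018) and by 1.06 with T/S/Z (SE 0.08, adjusted p = 1.95e-05). Tab2 rose by 0.81 with T/5z (SE 0.08), Chuk, which encodes the IKKalpha kinase, by 0.59 with T/S/Z (SE 0.08), and Map3k14, which encodes NIK, by 0.78 in astrocytes (SE 0.10, adjusted p = 0.0012). Ikbkg, the regulatory subunit of IKK, had microglial differences of 0.14 (T/5z) and 0.09 (T/S/Z). Of the 6 processing and coactivator genes, 0 passed with T/5z, and 5 had an unadjusted p under 0.05 in limma (7140 of all 10524 genes). In astrocytes 0 of the 6 passed (15.4% of all genes), and 2 had an unadjusted p under 0.05 (6886 of all 13842 genes). With T/S/Z in microglia Fbxw11 rose by 0.78 (SE 0.05) and Ep300 fell by 0.64 (SE 0.07).

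With Nec-1s the inhibitor group held most of the genes that passed. In microglia 5 of its 11 genes fell with T/5z/N against T/5z, 6 fell and 1 rose with T/S/Z/N against T/S/Z, and in astrocytes 3 of 10 fell. Among all genes 7.16%, 12.1% and 3.1% passed in these comparisons. Over all 37 genes the counts were 6 lower and 1 higher, 7 lower and 4 higher, and, without Nfkbid in astrocytes, 3 lower and 0 higher. Tnfaip3 fell by 1.29 after T/5z (SE 0.09, adjusted p = 1.49e-05). Nfkbid and Nfkbiz, which encode the nuclear IkB proteins IkBNS and IkBzeta, fell by 2.58 (SE 0.11) and 2.43 (SE 0.17) after T/S/Z in microglia. In astrocytes Nfkbiz fell by 1.40 (SE 0.09) and Nfkbib by 0.86 (SE 0.12, adjusted p = 0.0083).

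Nfkbid, like Rel, was raised by T/S/Z and not by T/5z in microglia, with a direct difference of 2.36 (SE 0.19, adjusted p = 0.00012). Nfkbid also passed the interaction, at 2.15 (SE 0.22, adjusted p = 1.37e-05). It was not the only such gene, since Nfkbiz and Traf3 rose with T/S/Z (2.04 and 0.90) and did not pass with T/5z (0.54 and 0.12). In the direct comparison 4 of the 37 genes were higher with T/S/Z and 2 lower (9.83% of all genes passed and 5.42% were higher). Birc2 passed the interaction in the other direction, at -1.28 (SE 0.11, adjusted p = 3.28e-06), since it fell by 0.63 after T/5z (SE 0.06) and rose by 0.65 after T/S/Z (SE 0.07) with Nec-1s. Map3k14, the kinase of the noncanonical branch, rose with Nec-1s after both stimuli, by 0.69 (SE 0.06) and 0.88 (SE 0.07).

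The genes nearest to each subunit gene were found by the root mean square of the distance between their mean differences from DMSO, over 5 treatments in microglia and 3 in astrocytes. In microglia Nfkb1 was nearest to Cd274 (0.09), which encodes PD-L1, and to Junb (0.11), a subunit of the AP-1 factor. Nfkb2 was nearest to Slamf8 (0.12) and Vasp (0.12), Rela to Elp5 (0.04) and Ifi203 (0.06), and Relb to Slc31a2 (0.11) and Igsf6 (0.14). The gene nearest to Rel was further off, Hmga1 at 0.16, followed by Atf4, a stress-response factor, at 0.17. Hmga1 and Atf4 had differences from DMSO of 1.10 and 1.01 with T/S/Z and of 0.01 and 0.00 with T/5z.

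In astrocytes Nfkb1 was nearest to Bcl3 (0.05), which encodes a nuclear IkB protein that pairs with p50 and p52. Nfkb2 was nearest to the chemokine gene Cxcl5 (0.04) and Relb to Tnip1 (0.09), which encodes an A20-binding protein. Relb had Nfkb2 itself among its 3 nearest of 13841 genes, at 0.10. Rela was nearest to Eif6 (0.04) and Rel to Cxcl9 (0.04). These are descriptions of likeness over few treatments that share their DMSO libraries.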

How the data were processed

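The authors sequenced polyadenylated RNA of 24 microglial and 12 astrocyte libraries and quantified it in OmicSoft Array Studio. The deposited log2 values are FPKM scaled to a common 75th percentile (4.11 to 4.16 in microglia, 4.73 to 4.74 in astrocytes), with 1 added before the log. The aligner is not given in the sources used here, and per the labels astrocyte libraries were strand-specific and came from another provider, a difference the study's methods do not mention. The microglial table had been adjusted so that replicates share each gene's mean, which left 10728 negative values, 0 of them in the subunit genes.

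Total counts are not part of the tables. Steps between low astrocyte values correspond to 21.3 M to 22.4 M fragments per library or a whole multiple of that. At the median 71.4% of these values lay within 0.1 of whole multiples, so whole reads were not recovered and no count test was run. The microglial depth was not settled.

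Genes at a log2 value of at least 1 in at least 4 microglial or 3 astrocyte libraries were tested (10524 and 13842). limma 3.58.1 (R 4.3.3) was fitted to the libraries of the compared groups with a variance trend. A paired test in the study's methods is why replicate number entered the model as a block. p-values are 2-sided and adjusted by Benjamini-Hochberg over all tested genes. The fit was tested on simulated data. Deviations of same-numbered astrocyte libraries correlated at -0.144 to 0.411, with 5 of 18 pairs over 0.1, which does not show that the numbers pair samples. In microglia the adjustment of replicate means fixes this check, so pairing could not be judged there. The study's statistics section describes its replicates in general as biological, from separate litters, while the labels do not tie libraries to litters. Tables were never tested against each other. The alternatives were no block, no and stricter filters, 5 FPKM added, median centring, quantile normalization, ordinary variance, all groups in 1 fit and leaving out each replicate.

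The members, the pathway and marker lists and the tests were chosen with earlier results of these data known. Genes were named by a rule: the 5 subunit genes, for each pathway group the 2 largest differences that passed and the smallest, and the 3 genes nearest to each subunit gene, not all of which are printed. Birc2 for T/S/Z against DMSO, and the values of Nfkbiz and Traf3 set beside Nfkbid, fall outside the rule and were chosen after they were seen. Promoter sequences are from RefSeq (GRCm38.p6). Windows for Nfkb1 and Relb were not used here.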

Additional observations from a re-analysis of the deposited data

Results flagged for a closer look

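Nfkb1 in replicate 3 of T/5z microglia was far from the other libraries of its group, at 7.07 against 7.31 to 7.34 (log2(FPKM + 1)). It was 1 such library in 30 gene and treatment groups tested, and chance gives about 1 in 20. Without that replicate the rise of Nfkb1 with T/5z still passed.

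Rel was singled out because its difference with Nec-1s was higher after T/5z than after T/S/Z in microglia by 1.09 (limma interaction, SE 0.15, adjusted p = 0.000114). Rel also moved in opposite ways between cell types when Nec-1s was added to T/S/Z, by -0.86 in microglia (lower in 4 of 4 replicates) and by 0.20 in astrocytes (higher in 3 of 3). The difference between the cell types was not tested, and the astrocyte change did not pass (adjusted p = 0.214).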

How the results depend on the processing

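Of the alternatives to the 70 gene differences, 785 kept direction and call, 11 kept direction and lost the call, and 20 changed sign, all of the latter in differences that had not passed. Of the alternatives to the counts of genes that passed, 160 stayed within 1.5 times and 4 did not. For the log2 levels 39 were classed as unchanged and 11 as moved, and for the percent shares 46 and 4. With ordinary per-gene variance the astrocyte count for T/S/Z/N against T/S/Z was 0 of 5 and against DMSO 2 of 5, of which Rel is a description and no test, and leaving out 1 replicate moved the former between 0 (without replicate 1 or 2) and 1. The fit without the replicate block changed no call. In microglia the adjusted replicate means leave the block little to remove, so this bears on astrocytes, where Rela with T/S/Z/N against T/S/Z was -0.65 without the block (adjusted p = 0.0165).

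Under quantile normalization the sign turned for Relb with T/5z/N against T/5z (0.031), Nfkb2 with T/S/Z/N against T/S/Z (0.17), Nfkb1, Nfkb2 and Rela with T/S/Z against T/5z (-0.14, -0.091 and -0.026), Rel with Nec-1s in astrocytes (0.014) and the interaction of Nfkb1 and Rela (-0.10 and -0.092). Under median centring it turned for Nfkb1 with Nec-1s in microglia (0.0013). Leaving out 1 replicate gave ranges across 0 for Nec-1s alone in microglia of Nfkb1 (-0.027 to 0.023) and Rela (-0.0014 to 0.0455), and in astrocytes of Nfkb1 (-0.10 to 0.013), Rela (-0.010 to 0.19), Relb (-0.068 to 0.036) and Rel (-0.087 to 0.026). The same held for Rel with T/5z (-0.049 to 0.090), Nfkb1 with T/S/Z against T/5z (-0.077 to 0.044), Nfkb1 with T/S/Z/N against T/5z/N (-0.053 to 0.013) and the interaction of Nfkb1 (-0.024 to 0.049) and Rela (-0.013 to 0.028). The cause was not tested. The lost calls were Rela for T/5z/N against DMSO in microglia under quantile normalization (0.57), and otherwise in astrocytes. There 4 of the 11 concern Rel against DMSO, which had to differ to be tested and is not read as a call; with 5 FPKM added it differed by 0.25 (T/S/Z) and 0.34 (T/S/Z/N). Rela for T/S/Z/N against T/S/Z lost it with ordinary variance (adjusted p = 0.265) and without replicate 1 or 2, and Nfkb1, Rela and Relb for T/S/Z/N against DMSO lost it with ordinary variance (adjusted p = 0.0572, 0.107 and 0.0688). A filter at a mean of 3 dropped Rel in astrocytes. The depth behind the microglial values is unknown here.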
